A study of Drosophila melanogaster with 3 samples.

Results

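Nuclear pore and nuclear transport genes were examined in ChIP-seq peak lists of Row, a zinc-finger protein of Drosophila. The members were the 21 protein-coding genes whose symbol begins with Nup and a digit, and 13 further genes taken by name: mbo, Mgtor, Gp210, Elys, Sec13, emb, msk, Ran, Rcc1, RanGAP, Kap-alpha1, Kap-alpha3 and Pen. These 34 genes were part of 13968 protein-coding genes in the Ensembl release 115 annotation. The rule that picks them uses symbols and no measured value, although it was written with earlier results of these data known. The chromatin came from whole Drosophila melanogaster embryos aged 0-24 h that expressed a row-eGFP fusion protein from an insertion, and an antibody against GFP was used for the precipitation. The 3 biological replicates were labelled as separate biosamples of 1 strain and carried the same insertion and the same age range, so there was 1 group and no contrast between conditions. The labels do not say which promoter drove the fusion or whether untagged Row was still made, and whole embryos of this range mix every tissue and stage.

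The nuclear pore complex is a channel through the nuclear envelope built of nucleoporins. Stacked outer rings of the Y complex and an inner ring form its scaffold, nucleoporins with phenylalanine-glycine repeats fill the channel, and filaments and a basket extend to the cytoplasm and the nucleus. Importins and exportins carry cargo through the channel, and the small GTPase Ran, bound to GTP in the nucleus and to GDP in the cytoplasm, sets the direction. Most of these genes serve every dividing cell of the embryo. Row, named as a relative of the protein Woc, is known as a partner of heterochromatin protein 1c, which sits at promoters of active genes.

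Row-eGFP peaks lay at the promoters of most of these genes. A gene was counted as bound when the summit of a peak, the base with the strongest signal, was within 500 bp of one of its annotated transcription start sites (TSSs). In the main peak list, made from replicates 1 and 2 at an irreproducible discovery rate (IDR) of 0.01, 24 of the 34 members (70.6%) were bound, beside 36.4% of all protein-coding genes. Replicate 1 gave 23 members (67.6%) against a background of 40.3%. Replicate 2 gave 20 members (58.8%) against 32.0%, and replicate 3 gave 25 members (73.5%) against 32.8%. The mean over replicates was 66.7% ± 7.40 (SD, n = 3) for the members and 35.0% ± 4.57 (SD, n = 3) for all genes, and the members' share was above the background in each replicate. A list built from replicates 1 and 3 held 26 members (76.5%, background 37.5%), and a list built from replicates 2 and 3 held 20 (58.8%, background 35.6%). The pooled list held 27 members (79.4%, background 42.7%). The background covers genes that are silent in embryos as well as active ones, and the part of gene activity in the difference was not tested. Read depth is not in the peak lists and is unknown, so a gene without a summit is one with no peak past the threshold.

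**Figure D1:**
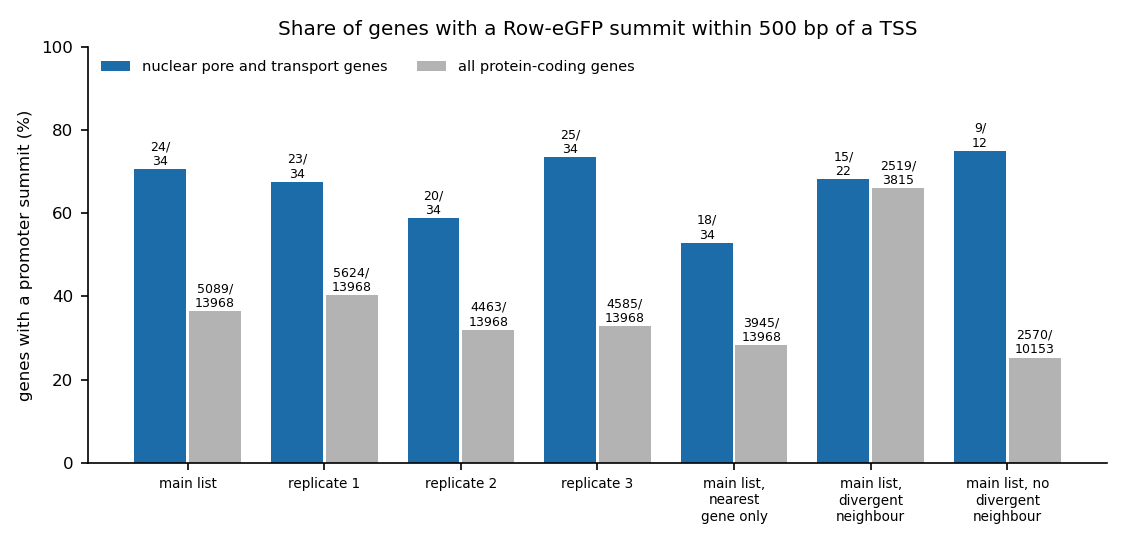
Percentage of genes with a Row-eGFP summit within 500 bp of a TSS (vertical axis) for the 34 nuclear pore and transport genes and for all protein-coding genes, with the counts above the bars. The member bar stands above the background bar in the main list and in each replicate, while the bars for genes with a divergent neighbour are of nearly the same height (68.2% and 66.0%).

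Repeatability differed among the members. Of the 34 genes, 18 (52.9%) had a promoter summit in all 3 replicates, beside 28.5% of all genes, and 6 (17.6%) had one in no replicate, beside 57.3% of all genes. Among the 24 members of the main list, those 18 made up 75.0%, and among all genes bound in the main list the corresponding share was 78.0%. The members were thus bound more often than genes in general, while those that were bound recurred in the replicates at nearly the rate of other bound genes.

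Peak strength at the members was not above that of other bound genes in the main list. The signal value of a peak is the authors' own measure of its enrichment and can be compared only within 1 list. The strongest promoter peak of each bound member had a median signal of 448.2 (range 9.8 to 2201.7) in the main list, and that of all bound genes had a median of 507.4. Of the 24 bound members, 10 exceeded the median of all bound genes, and 5 (20.8%) lay in the strongest 10% of the list, beside 22.2% of all bound genes. To set replicates side by side, the position of a peak is given below as the percentage of peaks in the same list that had a lower signal.

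The 4 strongest members were RanGAP, Nup98-96, Kap-alpha3 and Nup133, and the bases around their summits are shown because these sites lead the members' list. RanGAP encodes the GTPase-activating protein that returns Ran to its GDP form on the cytoplasmic side. Nup98-96 encodes a precursor that is cleaved into Nup98, a repeat nucleoporin, and Nup96, a Y complex subunit. Kap-alpha3 encodes an importin alpha, the adaptor that recognises nuclear localisation signals, and Nup133 encodes a Y complex subunit. Each line runs 5′ to 3′ on the strand of the gene, covers up to 60 bases on either side of the summit and stops where an annotated UTR begins. The sequences are from the RefSeq genome of assembly dm6, and capitals mark ATCGAT, the core of the DNA replication-related element (DRE). RanGAP is shown from chr2L:19444827-19444947 (+), Nup98-96 from chr3R:23781622-23781687 (-), Kap-alpha3 from chr3R:9577826-9577946 (-) and Nup133 from chr3R:22690442-22690562 (+).
RanGAP: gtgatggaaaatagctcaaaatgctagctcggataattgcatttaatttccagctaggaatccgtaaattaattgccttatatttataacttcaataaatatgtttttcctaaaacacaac
Nup98-96: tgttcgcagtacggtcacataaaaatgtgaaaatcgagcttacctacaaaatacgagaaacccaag
Kap-alpha3: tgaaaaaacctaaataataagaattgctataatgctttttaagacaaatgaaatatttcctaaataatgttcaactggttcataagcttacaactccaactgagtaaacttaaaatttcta
Nup133: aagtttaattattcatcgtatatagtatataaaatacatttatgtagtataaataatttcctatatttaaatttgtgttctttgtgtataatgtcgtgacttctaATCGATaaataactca
The DRE core occurred once, in the Nup133 stretch, and in none of the other 3. Base composition at the member summits was close to that of other promoter summits. Within 100 bp of the strongest summit of each member, A and T made up a median of 65.2% of bases (range 44.8% to 78.6%). Over all promoter summits, weaker second summits of a gene included, the median was 64.7%.

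The Ran cycle was bound completely, with all 3 members present in all 3 replicates, beside 28.5% of all genes. RanGAP had a signal of 2202 in the main list, rank 278 of 10483 peaks, and signals of 571, 899 and 746 in replicates 1, 2 and 3. Those values placed it above 95.7%, 97.5% and 96.9% of the peaks of each list, near the top in each. The summit lay within an intron of RanGAP, 161 bp upstream of an internal TSS of the gene, and 137 bp from the TSS of the divergent gene Hs2st, the nearer of the pair. Ran itself had a signal of 584, and stood above 69.1%, 66.6% and 77.3% of the peaks in replicates 1, 2 and 3. Rcc1, the chromatin-bound exchange factor that loads Ran with GTP, was weaker, with a signal of 234 and values of 34.0%, 16.4% and 42.4%. Ran and Rcc1 had no divergent neighbour, and each had 2 promoter summits in the main list, as did Nup58 and Sec13. The weaker Ran summit had a signal of 314, and each replicate had a second summit near it. The weaker Rcc1 summit had a signal of 12.2, above 1.6% of the list, and no replicate had a second summit there.

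The Y complex was the largest role group, with 8 of its 10 genes bound in the main list, at a median signal of 746. The same 8 were bound in all 3 replicates. Over all genes, 36.4% were bound in the main list and 28.5% in all 3 replicates. All genes of the group but Nup107 had a divergent neighbour, and 66.0% of all genes with one were bound in the main list. Nup98-96 had a signal of 2127, rank 297, and signals of 550, 778 and 806 in replicates 1, 2 and 3, above 95.3%, 96.6% and 97.4% of the peaks. Its summit lay 6 bp upstream of its TSS, between Nup98-96 and the divergent gene mbc. Nup133 had a signal of 1257, and 517, 395 and 341 in the replicates, above 94.7%, 88.6% and 85.9% of the peaks. Nup160, a subunit in the arms of the Y, had a signal of 1140, and 451, 379 and 319 in the replicates, above 93.1%, 87.8% and 84.3%. Nup133 and Nup160 thus stood highest in replicate 1 and lowest in replicate 3 of their lists. Their summits lay 105 and 70 bp upstream of the TSS, with wfs1 and Csl4 as divergent neighbours.

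The other bound genes of the Y complex had middle to upper positions. Nup37 had a signal of 757, and stood above 80.5%, 76.7% and 79.2% of the peaks of replicates 1, 2 and 3, although the TSS of the ribosomal protein gene RpS27 was nearer to its summit. Sec13, a subunit shared with the COPII vesicle coat, had a signal of 736 and values of 70.8%, 70.2% and 81.0%, with ATPsynCF6 as its divergent neighbour. Nup107, which joins the stem of the Y, had a signal of 495 and values of 73.3%, 61.2% and 61.5%, at a promoter with no other gene within 500 bp. Nup43 had a signal of 410 and values of 58.9%, 53.8% and 56.4%, and WRNexo began 476 bp away on the other strand. Elys, a DNA-binding nucleoporin with which pore assembly begins on chromatin after mitosis, had a signal of 378 and values of 54.5%, 55.6% and 55.3%. The Elys summit lay in the 5′ UTR of Ranbp21, itself the gene of an exportin, 99 bp from its TSS and 135 bp from that of Elys. Nup44A, the fly Seh1, and Nup75, the fly Nup85, were the 2 genes of the Y complex without a summit in the main list.

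**Figure D2:**
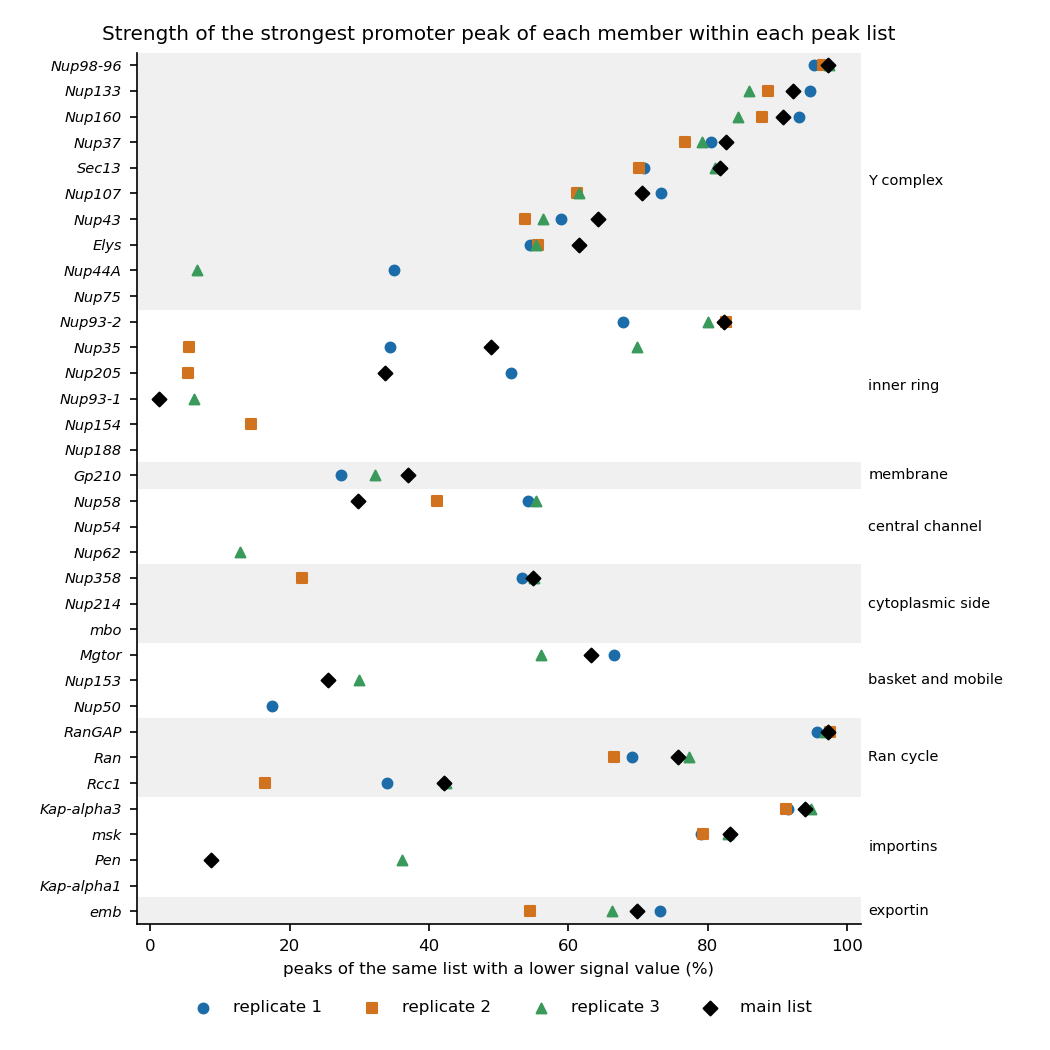
Position of the strongest promoter peak of each of the 34 members in each peak list, as the percentage of peaks of the same list with a lower signal (horizontal axis), in order of role. Diamonds are the main list and the other symbols are the 3 replicates, and a missing symbol means no promoter summit in that list. In the main list the points run from Nup93-1 at 1.2% to RanGAP at 97.3%, and 10 members have no diamond, among them Nup44A and Nup75 of the Y complex.

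The inner ring, which connects the outer rings and the membrane, had 4 of 6 genes bound in the main list, beside 36.4% of all genes. Of these 4, 2 recurred in all 3 replicates. Nup93-2 had a signal of 752 and stood above 67.9%, 82.6% and 80.1% of the peaks of replicates 1, 2 and 3. Its summit was 12 bp upstream of the TSS, with CG3817 starting on the other strand. Nup35, which contacts the membrane, had a signal of 273 and placed unevenly, at 34.4%, 5.5% and 69.8%. Nup205, a large scaffold protein, had a signal of 197 in the main list, and passed the threshold at 51.8% in replicate 1 and 5.4% in replicate 2. Its peak in replicate 3 had an IDR of 0.0217, and pico had the nearer TSS. Nup93-1, a near relative of Nup93-2, had the weakest peak of all bound members, with a signal of 9.82, rank 10354. That summit was 331 bp upstream of Nup93-1, nearer to Clic, and a promoter summit past the threshold occurred in replicate 3 alone, at 6.2% of its list and a position of -494 bp. The peak of Nup93-2 thus lay above 82.4% of the main list and that of Nup93-1 above 1.2%. The large scaffold gene Nup188 and Nup154, the fly Nup155, had no summit in the main list.

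The membrane ring, the channel and the cytoplasmic side were represented by 1, 3 and 3 genes. In the main list 1 of each was bound, beside 36.4% of all genes. Gp210, a transmembrane nucleoporin, had a signal of 211 in the main list and stood above 27.4% of peaks in replicate 1 and 32.2% in replicate 3. In replicate 2 its peak had an IDR of 0.347 and was not past the threshold. Of the 3 channel genes, whose products form a complex of repeat nucleoporins, Nup58 was bound, with a signal of 181 and values of 54.2%, 41.2% and 55.3% in the replicates. Nup54 and Nup62 had no summit in the main list. On the cytoplasmic side, Nup358, the large filament protein that binds Ran, had a signal of 317 and values of 53.4%, 21.8% and 55.0%. The other two cytoplasmic genes, Nup214 and mbo (the fly Nup88), had none.

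In the basket, Mgtor, the fly Tpr protein Megator, had a signal of 395 and stood above 66.6% of peaks in replicate 1 and 56.0% in replicate 3. Its replicate 2 peak had an IDR of 0.0351, short of the threshold. Nup153, the repeat nucleoporin of the basket, had a signal of 164, rank 7815, and a thresholded promoter peak in replicate 3 alone, at 29.9%. Its peaks in replicates 1 and 2 had IDRs of 0.0829 and 0.382 within those replicates. The main list nevertheless held the site, because the IDR there was computed between the replicates and was 0.00748. The Nup153 summit lay in the 5′ UTR of CG9784, whose TSS was 12 bp away. Nup50, a mobile nucleoporin that helps to release importin cargo, was not bound in the main list.

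Among the carriers, 3 of 4 importin genes and the exportin gene were bound in the main list, beside 36.4% of all genes. All of these carrier genes but Pen had a divergent neighbour, and 66.0% of all genes with one were bound in the main list. Kap-alpha3 had a signal of 1435, rank 630, and signals of 404, 461 and 582 in replicates 1, 2 and 3, above 91.5%, 91.2% and 94.8% of the peaks. Its summit was 153 bp upstream, in the interval shared with Son. The importin-7 gene msk had a signal of 776 and values of 79.1%, 79.3% and 82.9%, and Arp3 was its divergent neighbour. Pen, the importin alpha2 gene, was near the foot of the list, with a signal of 106, rank 9569. The only thresholded promoter summit of Pen in a replicate was in replicate 3, 498 bp downstream of the TSS, whereas the main summit was 52 bp upstream. Replicate 1 had a Pen peak at -56 bp with an IDR of 0.0142, and replicate 2 had one at -47 bp with an IDR of 0.398. The exportin gene emb, the fly CRM1, had a signal of 486 and values of 73.1%, 54.5% and 66.3%, with fy on the other strand. The 3 importin alpha genes thus ranged from a strong peak at Kap-alpha3 through a weak one at Pen to none past the threshold at Kap-alpha1. Short of the threshold, Kap-alpha1 had peaks in replicate 1 (signal 20.8, IDR 0.503) and replicate 3 (signal 20.9, IDR 0.685).

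Of the 10 members without a summit in the main list, 6 had none in any replicate: Kap-alpha1, Nup188, Nup214, Nup54, Nup75 and mbo. The other 4 passed in at least 1 replicate at a low position. Nup44A was found in replicate 1 at 35.0% and in replicate 3 at 6.7%, and its replicate 2 peak had an IDR of 0.0342. Nup154 was found in replicate 2 at 14.5%, with a summit at -479 bp. Nup50 was found in replicate 1 at 17.5%, with a summit at -44 bp. Nup62 was found in replicate 3 at 12.8%, with a summit at -22 bp. All of these positions were below the middle of their lists. In replicate 1, Nup75, Nup54 and Nup62 had peaks short of the threshold, at IDRs of 0.0147, 0.0155 and 0.0156. Their signals there were 47.34, 13.96 and 24.03. The longer ranked list behind the main list held 46604 peaks, beside 10483 past the threshold. In it 8 of the 10 had a peak within 500 bp. The share of all genes with such a peak was not computed, so this count has no background. The IDRs were 0.0205 at Nup62, 0.0214 at Nup44A and 0.0416 at Nup154. Those of the other 5 ran from 0.118 at Nup214 to 0.413 at Nup54. Kap-alpha1 and mbo had no peak within 500 bp in that ranked list. At the inner side of the threshold lay Nup93-1 (0.00976), Nup153 (0.00748) and Pen (0.00617).

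Most summits lay just upstream of the TSSs. In the main list, 22 of 24 members (91.7%) had the strongest summit upstream of the nearest TSS, beside 90.4% of all bound genes. Within 200 bp upstream the share was 21 of 24 (87.5%) for members and 64.6% for all bound genes. The median position was -94.5 bp for members and -116 bp for all bound genes. The members' share within 200 bp upstream was 87.0%, 85.0% and 84.0% in replicates 1, 2 and 3, and that of all bound genes was 65.2%, 63.6% and 65.6%. For the 18 members bound in all replicates, the strongest summits of the 3 replicates spanned a median of 23.5 bp (range 5 to 76), beside 28 bp for 3984 genes. Nup160 had the narrowest span, 5 bp, and Rcc1 the widest, 76 bp. Of the 24 summits, 18 were intergenic, 5 were in 5′ UTRs (Elys, Nup153, Nup58, Ran and Rcc1, the first pair in UTRs of their neighbours) and 1 was in an intron.

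**Figure D3:**
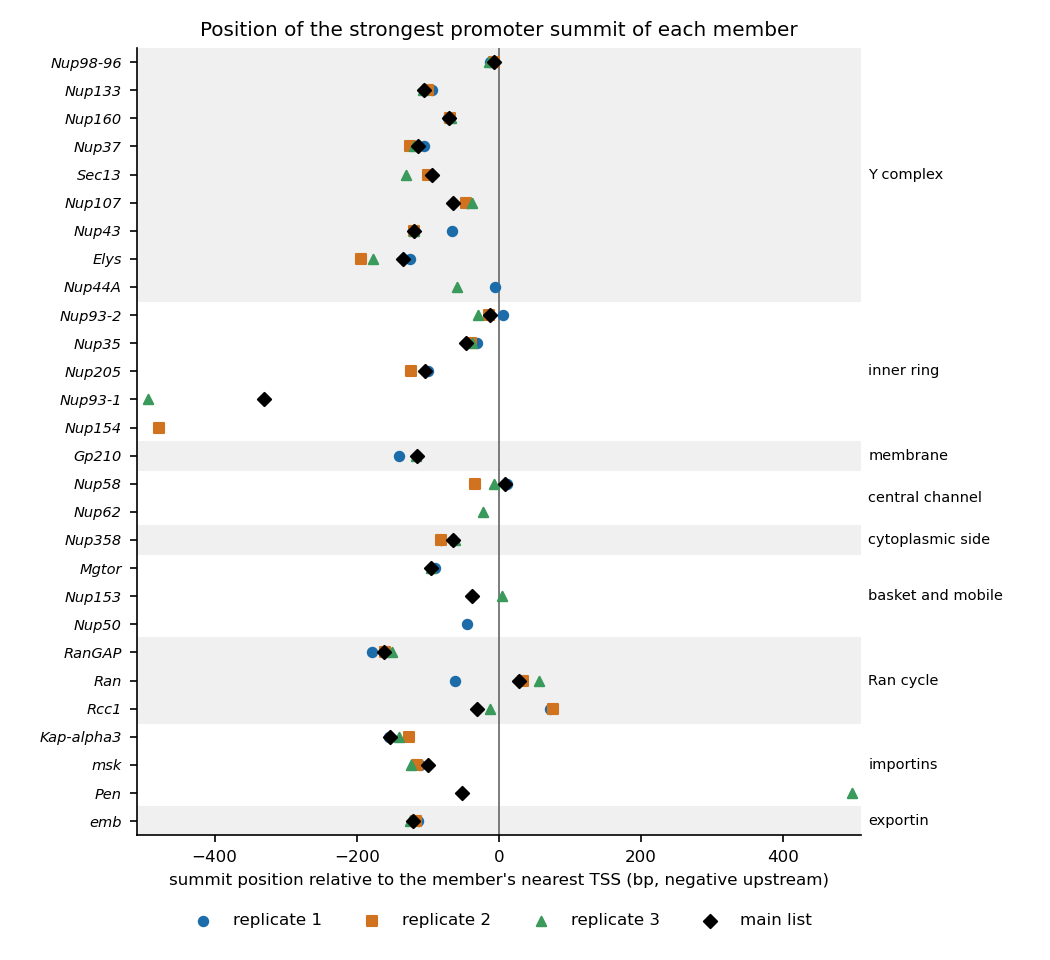
Position of the strongest promoter summit relative to the nearest TSS of the member (horizontal axis, bp, negative upstream) in the main list (diamonds) and the 3 replicates, for each member with a summit in any of these lists. Most points lie between the TSS and 200 bp upstream, and Nup93-1, Nup154 and the replicate 3 summit of Pen lie near the edges of the window.

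Many of these promoters face a second gene, and the comparison with all genes differed by that arrangement. A divergent neighbour, a protein-coding gene starting on the other strand within 500 bp, was present at 22 of 34 members (64.7%), beside 27.3% of all genes. Of members with such a neighbour, 15 of 22 (68.2%) were bound, beside 66.0% of all genes with one, so their share was at the background of that class. Of members without one, 9 of 12 (75.0%) were bound, beside 25.3%. When each peak was given to its nearest gene alone, 18 members (52.9%) were bound, beside 28.2% of all genes. Elys, Nup153, Nup205, Nup37, Nup93-1 and RanGAP lost their summit to a neighbour in that count. A summit between 2 close start sites cannot be assigned to one of them from these lists.

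The chromosome arms held the bound members unevenly. On X 6 of 6 were bound, beside 41.9% of all X genes, and 3 of the 6 were bound in all 3 replicates. On 3R 9 of 10 were bound (all genes 35.1%), on 2L 5 of 6 (34.7%) and on 3L 2 of 3 (35.7%). On 2R 2 of 9 were bound. The 2R members were bound in 22.2% of cases, beside 35.9% of all 2R genes, and the members on the other arms in 88.0% (22 of 25), beside 36.6%. Mgtor and Gp210 were the bound pair on 2R, and Nup188, Nup214, Nup44A, Nup50, Nup54, Nup62 and Nup75 were the 7 not bound there. The pattern depended on the list. In replicate 1, 4 of the 9 (44.4%) were bound, beside 40.0% of 2R genes. Replicate 2 had 0 of 9, beside 30.2%, and replicate 3 had 4 of 9 (44.4%), beside 31.3%. This split by arm was noticed after the values were seen and is a description without a test.

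Genes of neighbouring functions were set beside the members. Of 19 other transport genes, 15 (78.9%) were bound in the main list, with Tnpo-SR (signal 2010), Tnpo (1590) and Dbp80 (791) the strongest. Both of the first encode transportins, and Dbp80 is the fly Dbp5 helicase that remodels mRNA leaving the pore. Impbeta11, Ipo9, Ndc1 and Rae1 were not bound. Of 18 mRNA export genes, 10 (55.6%) were bound, led by e(y)2 (1175), Nxf3 (583) and sbr (515), the last of these being the main mRNA export receptor. Hpr1, Ref2, nxf2, nxf4, tex, thoc5, thoc6 and xmas were not bound. Of 12 nuclear lamina and envelope genes, 9 (75.0%) were bound, led by Msp300 (1743), klar (1516) and LamC (752), and baf, bocks and spag4 were not. At Tnpo-SR, e(y)2, Nxf3 and klar, the TSS nearest to the summit belonged to another gene: HemK2, CG11695, Meics and BORCS6, respectively. The background for the 3 lists is the same 36.4%. The mean over replicates was 70.2% ± 6.08 for other transport, 46.3% ± 3.21 for mRNA export and 72.2% ± 4.81 for the lamina list (SD, n = 3), against 66.7% ± 7.40 for the members. Elys and Ranbp21 shared 1 peak, so that site is counted in both the members and the other transport list.

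Short motifs were searched around the summits on both strands. Each member entered with its strongest promoter summit alone, whereas the promoter summits set beside them include weaker second summits of a gene. Within 100 bp, the DRE core ATCGAT was found at 12 of 24 member summits and at 23.2% of 4541 promoter summits. The full DRE, TATCGATA, which contains the core, was found at 4 (16.7%) and 10.7%. The sequence CGATA, recognised by the insulator protein BEAF-32 and overlapping the DRE, was found at 13 (54.2%) and 44.3%. The Motif 1 core GTCACACT was found at 3 (12.5%) and 5.5%, the E-box CAGCTG at 6 (25.0%) and 11.2%, the GAGA element GAGAG at 3 (12.5%) and 18.4%, and the TATA sequence TATAAA at 13 (54.2%) and 37.4%. The Zelda motif CAGGTA was found at none of the member summits and at 4.1% of all. The members with the DRE core were Gp210, Mgtor, Nup133, Nup153, Nup205, Nup35, Nup358, Nup58, Nup93-1, Nup93-2, Pen and emb.

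The DRE core was repeated at some of these summits, and 3 of these are shown. Within 100 bp of the summit, Nup35 had 4 copies, emb had 3, and Nup358, Mgtor and Nup153 had 2 each. The stretches run 5′ to 3′ on the strand of the gene, from the RefSeq genome of dm6, with ATCGAT in capitals. Nup35 is from chrX:18648076-18648181 (+), emb from chr2L:8403392-8403512 (+) and Nup358 from chr3R:25249224-25249344 (+).
Nup35: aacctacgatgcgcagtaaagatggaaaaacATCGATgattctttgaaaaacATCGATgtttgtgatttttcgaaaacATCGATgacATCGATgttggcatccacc
emb: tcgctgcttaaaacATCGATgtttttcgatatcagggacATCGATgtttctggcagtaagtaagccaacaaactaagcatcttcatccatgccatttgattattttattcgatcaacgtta
Nup358: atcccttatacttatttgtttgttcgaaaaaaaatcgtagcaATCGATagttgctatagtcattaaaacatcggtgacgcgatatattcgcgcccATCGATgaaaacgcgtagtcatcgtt
All 4 copies at Nup35 lie in this stretch, and 2 of the 3 at emb. None of the copies shown is part of a full TATCGATA, whereas a copy at Mgtor is.

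The members with the DRE core had the weaker peaks. Their median signal was 242.2 (n = 12, range 9.8 to 1256.9), and that of the members without it was 746.2 (n = 12, range 234.3 to 2201.7), so the ranges overlapped. Of the 12 members with the higher signals 3 had the core, and of the 12 with the lower signals 9 had it. Over all promoter summits the medians were 337.2 with the core (n = 1052) and 428.6 without it (n = 3489). That set includes weaker second summits of a gene, whereas each member entered with its strongest alone. The relation was noticed after the values were seen and is given as a description.

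**Figure D4:**
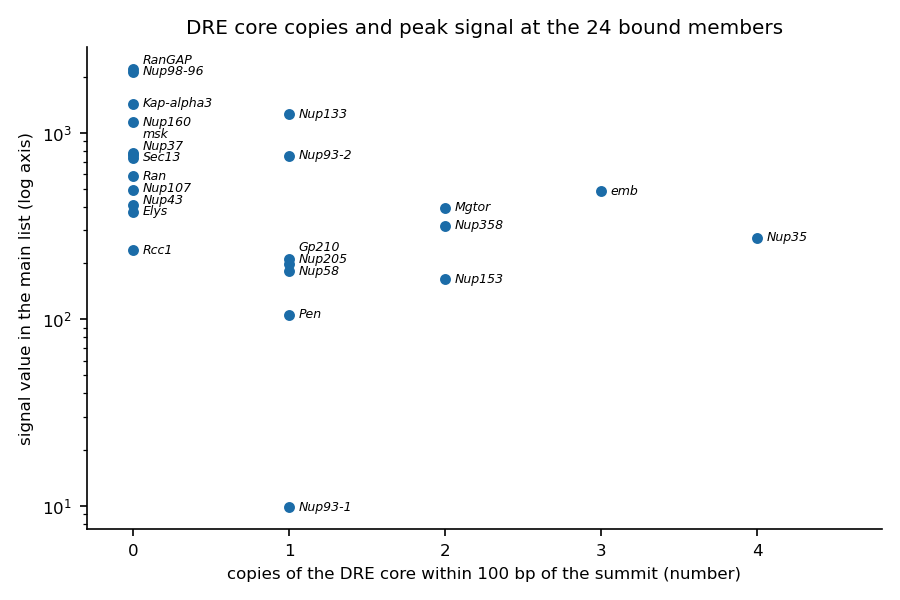
Signal value in the main list (vertical log axis) against the number of DRE core copies within 100 bp of the summit (horizontal axis) for the 24 bound members, 1 point each. Members without a copy reach from Rcc1 (234) to RanGAP (2202), and the 5 with 2 or more copies lie between Nup153 (164) and emb (486).

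The DRE was also present at promoters of members without a summit. From 250 bp upstream to 50 bp downstream of any TSS, the full DRE occurred at 5 of the 10 unbound members (Kap-alpha1, Nup188, Nup50, Nup54 and Nup75) and at 4 of the 24 bound members (16.7%). All bound genes had it at 17.9% and all unbound genes at 5.7%. The DRE core occurred at 5 of 10 unbound and 13 of 24 bound members (54.2%), beside 19.3% of unbound and 38.5% of bound genes. The Motif 1 core occurred at 8 of 24 bound members (33.3%), which were Nup160, Nup43, Nup93-2, Nup98-96, Ran, RanGAP, Rcc1 and Sec13, and at 1 of 10 unbound members, Nup62, beside 12.6% of bound and 4.7% of unbound genes. GAGAG occurred at 3 of 24 bound members (12.5%) and 3 of 10 unbound members, beside 36.2% of all genes. The E-box occurred at 5 of 24 bound members (20.8%), below the 29.0% of all bound genes, whereas at the summits its share was above. CGATA occurred at 62.5% of bound members and 66.4% of all bound genes. TATAAA occurred at 75.0% and 55.1% of these, and CAGGTA at 8.3% and 9.0%. Genes with several TSSs had more bases searched. A match of letters does not show that a factor was bound there.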

How the data were processed

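ChIP-seq peak lists of 3 biological replicates and 4 lists of the whole series were used as deposited, on assembly dm6 per the labels. Each peak carried a deposited score (a scaled IDR, at least 830 in the thresholded lists) and a deposited signal value, the enrichment from the authors' caller. A deposited −log10 IDR was given in the ranked lists. Per the file headers of the accompanying notes, the series lists derive from alignments of all 3 replicates. No label or header used here names the aligner or the caller. The labels describe sonication. The replicates behind each series list were found by matching intervals, and 99.8% of main-list peaks had the signal of the pooled ranked list, so main-list signals are those of a pool. The 3 replicates are therefore not independent of the main list.

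Summits were assigned to 19630 TSSs of 13968 protein-coding genes (Ensembl 115, BDGP6.54) with Python 3.11.15, pandas 2.3.3 and numpy 2.4.6, and the assignment was tested on simulated data. No test of significance was run: counts and medians stand beside the same over all genes. Every member is named. Replicate values are given for each member bound in a list, and in the other lists the 3 strongest and all unbound genes are named. The members and lists were chosen with earlier results of these data known. Mgtor was taken for the older symbol Mtor, and Ipo9, Impbeta11 and Nxf3 for older symbols in the lists.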

Additional observations from a re-analysis of the deposited data

How the results depend on the processing

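The count of bound members was 24 in the main list and between 16 and 27 under the other lists and windows tried, above the share of all genes in each. The lowest count came from peaks above the median signal (16 members, background 26.0%). The highest came from the pooled list (27 members, background 42.7%) and from an IDR of 0.05 (27 members, background 41.0%). The list selected without replicate 1 gave 20 (background 35.6%), and that without replicate 2 gave 26 (background 37.5%). Among genes with no other TSS within 500 bp, 9 of 12 members were bound (background 24.9%). These 12 are the members without a divergent neighbour, so this repeats the count given for them above. Windows of 250 and 1000 bp gave 23 and 26 members, beside 30.7% and 40.7% of all genes. The nearest-gene count was 16 without replicate 1 and 20 without replicate 2, beside 27.8% and 29.0% of all genes. The mean share of members per replicate was 63.2% to 70.6% when 1 replicate was left out.

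The median signal of members' peaks moved more, partly because different members enter it. It was 448.2 in the main list and 402.7 to 539.3 in lists whose peaks were selected without 1 replicate. The signal values in those lists are still those of the pool of all 3 replicates, so this range shows which members enter and not the signal without a replicate. The members' median was 395.3 in the pooled list and at an IDR of 0.05, 743.7 above the median signal and 659.9 for peaks found in all 3 replicates. The cut at the median signal keeps the stronger peaks alone, so the rise to 743.7 follows from that setting. With windows of 250 and 1000 bp the members' median was 486.2 and 490.5.

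Of the members, 12 were bound in each of 11 alternatives and 5 in none: Kap-alpha1, Nup188, Nup214, Nup54 and mbo. The same counts were not made over all genes, so these have no background. One alternative, the peaks above the median signal, leaves out members with weaker peaks by its rule. Nup35, Gp210, Nup153 and Nup93-1 were lost from the list made without replicate 1. Within 50 bp of the summit in place of 100 bp, the DRE core was at 9 members (37.5%), beside 13.2% of promoter summits. The full DRE was then at 1 member (4.2%), below the 5.5% of promoter summits, whereas within 100 bp it was above. The Motif 1 core was at 1 (4.2%, beside 2.3%), the E-box at 2 (8.3%, beside 4.7%) and TATAAA at 6 (25.0%, beside 21.0%). CGATA was at 9 (37.5%, beside 27.6%) and CAGGTA at 0 (beside 2.1%). GAGAG was at 2 (8.3%, beside 8.1%), whereas within 100 bp its share was below that of promoter summits. No paired analysis was possible because there was 1 group.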
